A study of Mus musculus with 30 samples.

Results

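Naive GMP-MoP was set against naive GMP, both of them populations of progenitor cells sorted from mouse bone marrow, to see which genes distinguish a progenitor with neutrophil and monocyte features from the broader progenitor pool. The comparison takes the 3 libraries labelled naive GMP-MoP and the 3 labelled naive GMP, 6 of the 30 RNA sequencing libraries of the series, and covers all 11383 genes of the deposited table. The other 24 libraries hold naive MDP, cMoP, proNeu1 and proNeu2 and, at 2 days of LPS, GMP-MoP, GMP, proNeu1 and proNeu2, in groups of 3. They enter the shared estimate of spread and a few side comparisons. Naive GMP-MoP and naive GMP came from wild-type (WT) animals with no treatment on the label, and LPS GMP-MoP and LPS GMP from WT animals labelled LPS, 2 days. No label gives the strain, age, sex, sort gate or number of mice, and nothing beyond the words "bio rep" says that the 3 libraries of a group came from separate animals, so p-values measure the spread between these libraries.

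The granulocyte-monocyte progenitor (GMP) is the marrow stage from which neutrophils and monocytes arise, and populations sorted under that name can also hold precursors of eosinophils, basophils and mast cells. IRF8 and KLF4 are transcription factors that direct monocyte fate, C/EBPε and GFI1 drive the neutrophil granule program, and GATA1 and GATA2 act in eosinophil, basophil, mast cell, megakaryocyte and erythroid development. The common monocyte progenitor (cMoP) is committed to monocytes, the monocyte-dendritic cell progenitor (MDP) lies upstream of it, and proNeu1 and proNeu2 are early stages of committed neutrophil precursors. LPS, a component of the outer membrane of Gram-negative bacteria, sets off emergency production of myeloid cells.

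Values are FPKM, fragments counted relative to exon length and to the total of assigned reads. A log2 fold change (log2FC) is the difference of log2(FPKM + 1), GMP-MoP minus GMP, with its standard error, so that it understates the change of genes near 0. A gene was called higher or lower where limma gave an adjusted p under 0.05 and the log2FC reached 1 or -1, which is 2-fold. Of the 11383 genes, 230 were called higher in GMP-MoP (2.02%) and 743 lower (6.53%), together 8.55%, and 10410 were not called. Few of the higher genes moved far, with 44 at a log2FC of 2 or more, whereas 290 of the lower genes were at -2 or below and 32 at -5 or below. The median log2FC of all genes was -0.044. Means of 3 libraries are given with their SD, and log2FC values with their standard error. In 302 of the genes called lower the GMP-MoP mean was under 1 FPKM. The table holds genes with a mean of at least 1.00 FPKM over the 30 libraries, so a gene that is low in most populations is listed only where another population, often GMP itself, raised that mean.

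GMP-MoP carried more transcripts of monocyte genes (F13a1, Ly6c2, Csf1r, Irf8 and Klf4) and of neutrophil primary granule genes (Elane, Prtn3 and Mpo) than GMP. Transcripts of eosinophils (9 of 9 list genes), of basophils and mast cells (11 of 13), of megakaryocyte and erythroid cells (12 of 18) and of MHC class II were lower. Over all genes 6.53% were called lower and 2.02% higher, the shares beside which each naive list count below should be read. The lists were chosen with earlier results of these data known. Genes of DNA replication and mitosis, ribosomal protein and ribosome biogenesis genes, and genes of respiration and the proteasome were not called in either direction.

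Depth was similar in the compared groups, at 24.95 to 28.2 M assigned reads in GMP-MoP and 23.6 to 29.5 M in GMP, and libraries correlated at 0.985 to 0.991 within GMP-MoP and 0.981 to 0.983 within GMP. Against marker sets of 10 cell types, GMP markers were present in both groups: the 8 GMP markers, all in the table, summed to between 16164 and 18015 FPKM in the GMP-MoP libraries and between 5381 and 7700.1 FPKM in the GMP libraries. Most of that sum came from Mpo, Elane and Prtn3. Its mean was 20244 FPKM in naive proNeu1 and 19874 FPKM in naive proNeu2, so it does not set GMP apart from neutrophil precursors. Markers of other cells stood at different levels in GMP. The 7 eosinophil markers summed to between 2.95 and 29.96 FPKM in GMP-MoP and between 11261 and 15389.5 FPKM in GMP, with all 7 called lower in GMP-MoP. For 7 basophil or mast cell markers the sums were 93.4 to 106 FPKM in GMP-MoP and 4223 to 7349 FPKM in GMP, again with 7 called lower, and Fcer1a and Gzmb were at 0 reads in every GMP-MoP library. The 3 dendritic markers in the table summed to 0.794 to 1.14 FPKM in GMP-MoP and 326 to 781 FPKM in GMP. Of these markers 2 were called lower, and Cd74 and H2-Aa, genes of MHC class II presentation, made up nearly all of the GMP sum. The 5 megakaryocyte or erythroid markers summed to 6.65 to 8.36 FPKM in GMP-MoP and 449 to 515 FPKM in GMP. In bulk RNA, fewer cells of a type and less RNA per cell cannot be told apart, which touches every result below on genes of another lineage, and the part these markers had in the other results was not tested.

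Some libraries stood apart within their group. GMP-MoP replicate 2 was highest for 11 of 12 immediate early genes, with a median of 2.05 on the log2 scale above the other 2 libraries. GMP replicate 1 was lowest for 12 of 12 primary granule genes and 19 of 19 secondary and tertiary granule genes. GMP-MoP replicate 3 was highest for 16 of 18 monocyte markers and had the least of the eosinophil transcript Prg2.

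Of the genes that were higher in GMP-MoP, F13a1 had the greatest log2FC. It encodes the A subunit of coagulation factor XIII, is abundant in monocytes and lies on GRCm38 (chromosome 13, 36867178 to 37050244 on the minus strand). It stood at 245, 232 and 291 FPKM in the GMP-MoP libraries, against 5.59, 7.39 and 5.93 FPKM in the GMP libraries (log2FC 5.14 ± 0.13, adjusted p = 2.69e-20). The groups were far apart, and F13a1 was the only gene called higher with a log2FC above 5. Ly6c2, which encodes a Ly6C antigen of monocytes, reached 2039, 2270.1 and 2239.5 FPKM in the GMP-MoP libraries, against 40.5, 104 and 135 FPKM in the GMP libraries (log2FC 4.70 ± 0.25, adjusted p = 4.24e-14). Its neighbour Ly6a2 was at 119, 135 and 154 FPKM in the GMP-MoP libraries, against 3.45, 8.2 and 14.3 FPKM in the GMP libraries (log2FC 3.99 ± 0.29, adjusted p = 2.26e-11). For both genes GMP replicate 1 was the lowest of the 6 libraries, and the groups did not overlap. Ly6c1, the close relative of Ly6c2, was also called higher but stood at only 3.06 ± 0.409 FPKM in GMP-MoP and 0.215 ± 0.153 FPKM in GMP (SD, n = 3 each). Ly6c1 and Ly6c2 share sequence with other genes: 46.8% of the 31-base words of Ly6c1 and 23.8% of those of Ly6c2 occur in another annotated gene. Ly6c1 shares 31.1% of its words with Ly6c2, and Ly6c2 shares 14.6% of its words with Ly6c1. The authors' counting could therefore have moved reads between them. Shared words were not computed for Ly6a2, so whether its reads were shared with Ly6c2 was not tested. Of the 7 Ly6 genes measured here, 3 were called higher, and 2 were called lower, Ly6a and Ly6d (-2.22 ± 0.24).

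The promoters of Ly6c2 and Ly6a2 are shown because these neighbours ranked next after F13a1 among the leading genes, a ranking that leaves out predicted genes. They lie on chromosome 15 of GRCm38.p6, both on the minus strand, with start sites 23157 bases apart, Ly6c2 upstream sequence at chr15:75111972-75112221 and Ly6a2 upstream sequence at chr15:75135129-75135378. The 250 bases before each start site, from RefSeq, were 94.9% identical in a global alignment, and capitals mark bases that differ or have no partner.
Ly6c2: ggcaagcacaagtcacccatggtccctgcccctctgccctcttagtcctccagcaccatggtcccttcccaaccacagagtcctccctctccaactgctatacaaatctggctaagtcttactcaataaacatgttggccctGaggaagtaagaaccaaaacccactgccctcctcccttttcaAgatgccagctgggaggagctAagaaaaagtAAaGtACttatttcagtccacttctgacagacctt
Ly6a2: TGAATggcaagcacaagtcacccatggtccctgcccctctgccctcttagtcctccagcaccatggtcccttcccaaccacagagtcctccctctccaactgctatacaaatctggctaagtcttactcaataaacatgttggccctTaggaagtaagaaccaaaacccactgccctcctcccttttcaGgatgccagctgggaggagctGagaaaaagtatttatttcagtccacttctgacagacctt

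**Figure D1:**
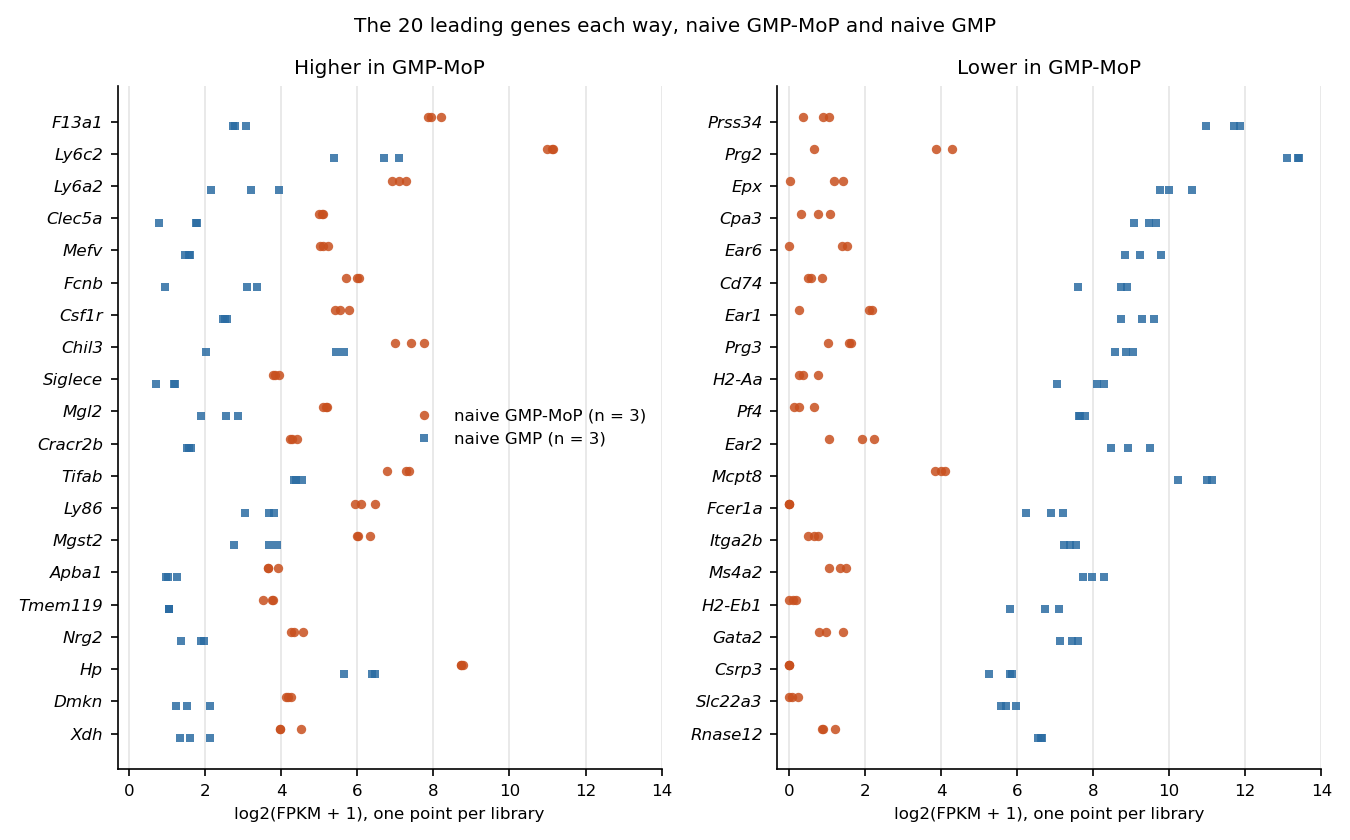
Levels of the 20 leading genes each way. Each point is 1 library on the log2(FPKM + 1) scale, circles for naive GMP-MoP and squares for naive GMP (3 libraries each), with genes ordered by the size of their log2FC from F13a1 (5.14) and Prss34 (-10.74) downwards; the 2 groups do not overlap for any gene shown, which the choice of genes required.

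The plot of leading genes shows the difference in shape between the directions. The higher genes were also detected in every GMP library, while most of the lower genes lay near 0 in GMP-MoP. Lack of overlap alone was common, since 22.6% of all genes had every GMP-MoP library above every GMP library and 30.3% had every one below.

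Monocyte markers were called higher more often than lower. Of 18 monocyte markers in the table, 8 were called higher and 2 lower, against 2.02% and 6.53% of all genes, with a list median of 0.49. Csf1r, the receptor for M-CSF that monocyte precursors depend on, was at 41.5, 45.3 and 54.3 FPKM in the GMP-MoP libraries, against 4.57, 4.79 and 4.91 FPKM in the GMP libraries (log2FC 3.05 ± 0.11, adjusted p = 3.25e-17). Ly86, which encodes MD-1, the partner of a Toll-like receptor relative, was at 67.6, 60.9 and 87.5 FPKM in the GMP-MoP libraries, against 12.9, 7.23 and 11.7 FPKM in the GMP libraries (log2FC 2.67 ± 0.18). Smaller differences were found for 3 others. Emb, an adhesion molecule, was at 235 ± 18.2 FPKM in GMP-MoP and 81.6 ± 4.77 FPKM in GMP (log2FC 1.51 ± 0.076). Ms4a6c was at 92.8 ± 20.5 FPKM in GMP-MoP and 37.6 ± 3.91 FPKM in GMP (log2FC 1.26 ± 0.13). The lysozyme gene Lyz2 was at 224 ± 73.9 FPKM in GMP-MoP and 106 ± 23.2 FPKM in GMP (log2FC 1.04 ± 0.27). Cd14, the LPS co-receptor, was at 3.07, 13.7 and 4.18 FPKM in the GMP-MoP libraries, against 0.689, 1.36 and 1.39 FPKM in the GMP libraries (log2FC 1.67 ± 0.37), and its highest value was in GMP-MoP replicate 2. The chemokine receptors Ccr2 (log2FC 0.38) and Cx3cr1 (-0.10) that mark monocytes were not called, nor were Ms4a6b (0.037), Fn1 (0.61) and S100a6 (-0.83). Itgb7 and Lgals3, which code for an integrin and a galectin, ran the other way. Itgb7 stood at 2.34, 2.14 and 5.49 FPKM in the GMP-MoP libraries, against 58.6, 33.2 and 48.1 FPKM in the GMP libraries (log2FC -3.51 ± 0.23, adjusted p = 2.6e-12). Lgals3 stood at 4.29, 3.33 and 10.8 FPKM in the GMP-MoP libraries, against 17.7, 11.3 and 18.5 FPKM in the GMP libraries (log2FC -1.35 ± 0.29, adjusted p = 0.000399). Without GMP-MoP replicate 3 the count of monocyte markers called lower was 4.

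Among the regulators of monocyte fate, 2 of 8 in the table were called higher and none lower. Irf8 was at 139, 135 and 173 FPKM in the GMP-MoP libraries, against 68.7, 37.00 and 58.5 FPKM in the GMP libraries (log2FC 1.46 ± 0.18, adjusted p = 1.91e-07). Klf4 was at 11.8, 9.9 and 16.4 FPKM in the GMP-MoP libraries, against 4.29, 2 and 3.55 FPKM in the GMP libraries (log2FC 1.69 ± 0.18, adjusted p = 2.75e-08). In both genes the groups were separate and GMP replicate 2 was the lowest library. Cebpb (0.83 ± 0.082), Zeb2 (0.61 ± 0.11) and Spi1, which encodes PU.1 (0.49 ± 0.056), had adjusted p-values of 6.43e-09, 7.52e-05 and 8.19e-08 but log2FC values under 1. Irf5 (-0.29 ± 0.19, adjusted p = 0.209) and Irf1 (-0.17 ± 0.095, adjusted p = 0.156) did not pass on either count.

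Regulators of the neutrophil lineage did not move together. Of 9 in the table, 1 was called higher and 4 lower. Cebpe, needed for the later granule proteins, was at 47.9, 35.9 and 35.8 FPKM in the GMP-MoP libraries, against 88.1, 123 and 114 FPKM in the GMP libraries (log2FC -1.42 ± 0.13, adjusted p = 1.62e-09), and each GMP-MoP library was below each GMP library. Ets1 was at 3.02, 3.6 and 2.92 FPKM in the GMP-MoP libraries, against 43.6, 25.9 and 36.5 FPKM in the GMP libraries (log2FC -3.09 ± 0.14, adjusted p = 1.02e-15). Runx1 stood at 16.6 ± 0.0477 FPKM in GMP-MoP and 39.6 ± 3.69 FPKM in GMP (log2FC -1.20 ± 0.088) and Klf5 at 0.215 ± 0.0664 FPKM in GMP-MoP and 2.11 ± 0.286 FPKM in GMP (log2FC -1.35 ± 0.14). Cebpd was called higher, at 14.7 ± 0.787 FPKM in GMP-MoP and 6.53 ± 0.673 FPKM in GMP (log2FC 1.06 ± 0.069), but at 0.98 without GMP replicate 3, under the threshold. Gfi1, the repressor that holds back the monocyte program in neutrophil precursors, had 34.6, 33.96 and 27.99 FPKM in the GMP-MoP libraries, against 18.4, 31.3 and 29.97 FPKM in the GMP libraries, and these ranges overlapped (log2FC 0.30 ± 0.13, adjusted p = 0.0581). Cebpa, which myeloid commitment requires, had a log2FC of -0.49 ± 0.076 (adjusted p = 7.81e-06).

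Among primary granule genes the called ones were all higher in GMP-MoP. In total 6 of 12 were called higher and none lower (list median 0.91), and the list held 4.96 ± 0.249% of the summed FPKM in GMP-MoP and 2.11 ± 0.342% in GMP (SD, n = 3 each). Neutrophil elastase, Elane, stood at 5573, 6069 and 5273 FPKM in the GMP-MoP libraries, against 1038, 1814 and 1841 FPKM in the GMP libraries (log2FC 1.89 ± 0.15, adjusted p = 7.81e-11). Proteinase 3, Prtn3, was at 3825, 3789 and 3364 FPKM in the GMP-MoP libraries, against 706, 1163 and 1210.0 FPKM in the GMP libraries (log2FC 1.87 ± 0.13, adjusted p = 6.71e-12). Myeloperoxidase, Mpo, was at 5232, 5668 and 5191 FPKM in the GMP-MoP libraries, against 2208, 2976 and 2862 FPKM in the GMP libraries (log2FC 1.01 ± 0.098, adjusted p = 4.3e-09), a call that ended without GMP replicate 1 (log2FC 0.88) and without GMP-MoP replicate 2 (0.97). The other genes called were Hp, Gstm1 and Clec5a, and with these 3 the list reaches beyond primary granule proteins. Clec5a is also counted among the innate receptors below. Hp, haptoglobin, was at 427 ± 9.66 FPKM in GMP-MoP and 72.6 ± 20.3 FPKM in GMP (log2FC 2.58 ± 0.12). Gstm1, a glutathione transferase, was at 422 ± 10.2 FPKM in GMP-MoP and 161 ± 38.6 FPKM in GMP (log2FC 1.42 ± 0.14). Clec5a, an activating lectin receptor, was at 32.3 ± 1.13 FPKM in GMP-MoP and 1.86 ± 0.976 FPKM in GMP (log2FC 3.61 ± 0.16). Cathepsin G, Ctsg (0.76 ± 0.093), Ms4a3 (0.81 ± 0.11) and Prss57 (0.62 ± 0.11) had log2FC values above 0 that stayed under 1.

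In the list of secondary and tertiary granule genes, 6 of 19 were called higher and 0 lower, with a list median of 0.0017. The 6 were not the defining granule proteins. They were Fcnb, a ficolin (51.2, 62.6 and 65.5 FPKM in GMP-MoP, against 0.915, 7.54 and 9.26 FPKM in GMP, log2FC 3.46 ± 0.36), the chitinase-like Chil3, the NADPH oxidase subunit Cybb, Wfdc21 (1.60), Hsd11b1 (1.12) and Lyz2. Lactoferrin, Ltf (-0.88 ± 0.72), Camp (-0.82 ± 0.68) and Ngp (-0.98 ± 0.76), which define these granules, were not called, and 3 members were called lower without GMP replicate 1. Without that library Fcnb was at 2.69 and Hsd11b1 at 0.82, the second under the threshold. Chil3 was at 126, 168 and 217 FPKM in the GMP-MoP libraries, against 3.06, 42.3 and 49.4 FPKM in the GMP libraries (log2FC 3.01 ± 0.63, adjusted p = 0.000331), and its log2FC was 1.84 without GMP replicate 1 and 3.65 without GMP replicate 3. Chil3 shares 41.5% of its 31-base words with other annotated genes, which makes its level uncertain. The calprotectin genes S100a8 and S100a9 showed the same low library. S100a8 was at 368, 372 and 481 FPKM in the GMP-MoP libraries, against 20.2, 215 and 288 FPKM in the GMP libraries (log2FC 1.88 ± 0.57, adjusted p = 0.00753), and without GMP replicate 1 the call was lost (log2FC 0.70, adjusted p = 0.0951). The S100a8 call was also lost when limma was fitted to the 2 compared groups by themselves (log2FC 1.88, adjusted p = 0.114). S100a9 was at 128, 99.4 and 242 FPKM in the GMP-MoP libraries, against 22.02, 254 and 351 FPKM in the GMP libraries, with overlapping groups and no call (log2FC 0.20 ± 0.66, adjusted p = 0.821). Without GMP replicate 1 S100a9 was at -1.03, also not called, and without GMP replicate 3 S100a8 was at 2.58 and S100a9 at 0.94. Of 7 S100 genes 1 was called higher, S100a8, and 1 lower, S100a10 (-1.08 ± 0.16). S100a10 was at -0.94 without GMP-MoP replicate 2, and 2 of the 7 were called lower without GMP-MoP replicate 3 or without GMP replicate 2.

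**Figure D2:**
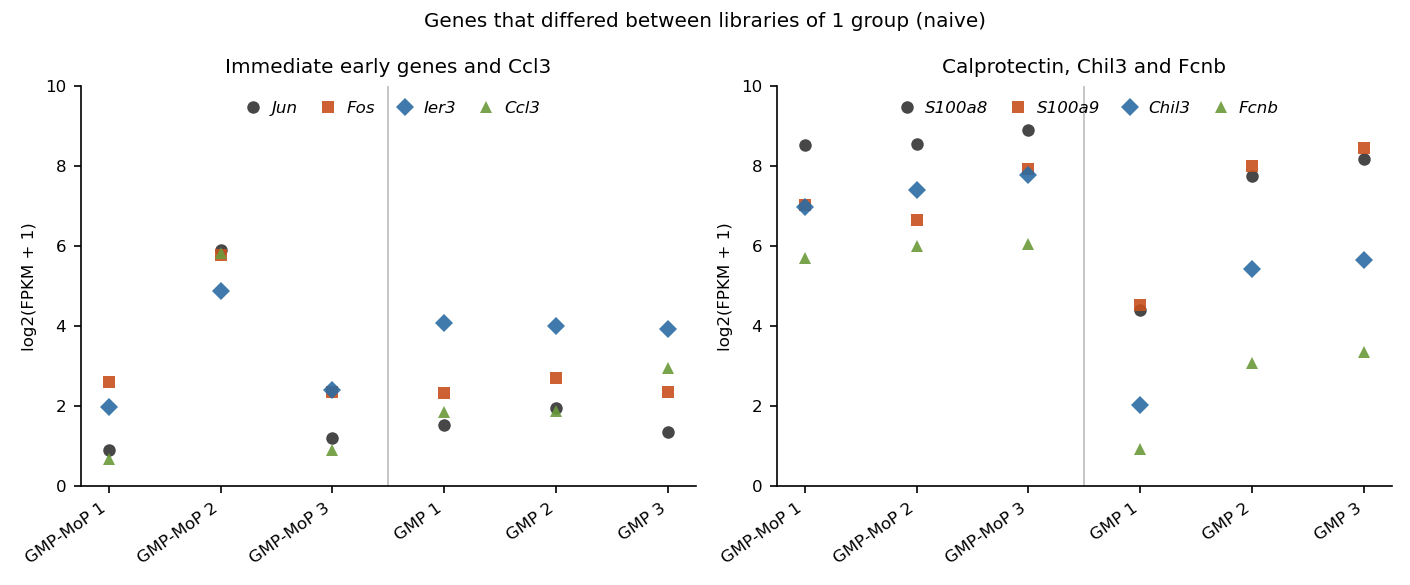
Genes that varied between libraries of 1 group, on the log2(FPKM + 1) scale, with the 3 naive GMP-MoP libraries left of the 3 naive GMP libraries. Left: Jun, Fos, Ier3 and Ccl3, which peak in GMP-MoP replicate 2 (Jun at 58.6 FPKM). Right: S100a8, S100a9, Chil3 and Fcnb, which are lowest in GMP replicate 1 (S100a8 at 20.2 FPKM).

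The plot of variable genes shows that the immediate early genes set 1 library of GMP-MoP apart. Jun, an AP-1 subunit, was at 0.887, 58.6 and 1.29 FPKM in the GMP-MoP libraries, against 1.91, 2.89 and 1.57 FPKM in the GMP libraries. Its partner Fos was at 5.04, 54.4 and 4.09 FPKM in the GMP-MoP libraries, against 4.02, 5.55 and 4.1 FPKM in the GMP libraries, and the chemokine Ccl3 at 0.615, 55.5 and 0.881 FPKM in the GMP-MoP libraries, against 2.61, 2.7 and 6.8 FPKM in the GMP libraries. None of these was called (adjusted p = 0.357 for Jun, 0.116 for Fos and 0.832 for Ccl3). Of 12 immediate early genes 1 was called higher, Fosl2 (1.13 ± 0.15), which did not peak in that library (8.21, 6.82 and 8.61 FPKM in GMP-MoP and 3.59, 3.2 and 2.44 FPKM in GMP). Without GMP-MoP replicate 2, 4 of the 12 were called lower and without GMP-MoP replicate 1 or replicate 3, 3 of the 12 were called higher. Fos, for one, was at a log2FC of 1.73 without GMP-MoP replicate 3 and 0.0082 without GMP-MoP replicate 2. Without GMP-MoP replicate 2 Ier3 was at a log2FC of -1.81 and Ccl3, which is not on that list, at -1.43.

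Receptors for growth factors and cytokines were called in both directions. Of 21 in the table, 4 were called higher and 7 lower. The higher ones were Csf1r, the IL-6 receptor chains Il6ra and Il6st, and the GM-CSF receptor α chain Csf2ra. Il6ra was at 21.9, 21.8 and 24.1 FPKM in the GMP-MoP libraries, against 6.55, 5.24 and 6.06 FPKM in the GMP libraries (log2FC 1.77 ± 0.07, adjusted p = 1.4e-16). Il6st was at 7.57 ± 2.35 FPKM in GMP-MoP and 2.94 ± 0.412 FPKM in GMP (log2FC 1.09 ± 0.13), and Csf2ra at 97.5 ± 6.19 FPKM in GMP-MoP and 46.7 ± 3.02 FPKM in GMP (log2FC 1.05 ± 0.085). Without GMP-MoP replicate 3 Il6st was at 0.90, and without GMP replicate 1 or GMP-MoP replicate 2 Csf2ra was at 0.998 or 0.996, all under the threshold. Csf3r, the G-CSF receptor of neutrophils, lay just under it at 59.4, 67.7 and 54.3 FPKM in the GMP-MoP libraries, against 25.1, 33.2 and 34.1 FPKM in the GMP libraries (log2FC 0.96 ± 0.093). It passed the threshold at 1.03 without GMP-MoP replicate 3, 1.01 without GMP replicate 2 and 1.03 without GMP replicate 3. The lower ones included receptors of mast cells and eosinophils. Il1rl1, the IL-33 receptor of mast cells and basophils, was at 0, 0 and 0.0208 FPKM in the GMP-MoP libraries, against 19.6, 15.8 and 14.2 FPKM in the GMP libraries (log2FC -4.11 ± 0.10, adjusted p = 2.59e-20). The IL-5 receptor Il5ra of eosinophils was at 0.122, 0 and 0 FPKM in the GMP-MoP libraries, against 9.5, 10.6 and 10.3 FPKM in the GMP libraries (log2FC -3.42 ± 0.097). Flt3, the receptor of early lymphoid and dendritic progenitors, was at 0.773, 1.36 and 2.2 FPKM in the GMP-MoP libraries, against 24.9, 15.4 and 20.4 FPKM in the GMP libraries (log2FC -3.14 ± 0.18, adjusted p = 2.83e-13). Csf2rb2, the β chain specific to IL-3 in mice (3.28 ± 0.49 FPKM in GMP-MoP and 16.98 ± 3.92 FPKM in GMP, log2FC -2.05 ± 0.11), Il2rg (-1.30 ± 0.096) and Il7r (-1.27 ± 0.19) were also called lower, and Il7r was at -0.99 without GMP replicate 3. The common β chain Csf2rb (-0.49 ± 0.069), Il3ra (-0.64 ± 0.11) and Kit, the stem cell factor receptor (-0.46 ± 0.081), had log2FC values below 0 and above -1. Csf2rb2 shares 30.1% of its 31-base words with other genes.

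Innate sensors were called in 1 direction. Of 24 pattern recognition and innate receptor genes, 8 were called higher and none lower (list median 0.58). Mefv, which encodes pyrin, was at 31.7, 33.1 and 36.5 FPKM in the GMP-MoP libraries, against 1.75, 1.96 and 2.06 FPKM in the GMP libraries (log2FC 3.57 ± 0.071, adjusted p = 6.11e-22). Clec7a, the β-glucan receptor Dectin-1, was at 18.2 ± 4.2 FPKM in GMP-MoP and 3.29 ± 0.807 FPKM in GMP (log2FC 2.16 ± 0.19). Clec4a2 was at 16.3 ± 1.41 FPKM in GMP-MoP and 4.97 ± 1.82 FPKM in GMP (log2FC 1.58 ± 0.22), and Tlr1 at 4.25 ± 0.593 FPKM in GMP-MoP and 0.899 ± 0.47 FPKM in GMP (log2FC 1.49 ± 0.14). No library of GMP reached the lowest GMP-MoP value for Mefv. The inflammasome gene Nlrp3 had 1.86, 9.35 and 4.26 FPKM in the GMP-MoP libraries, against 0.901, 0.443 and 0.606 FPKM in the GMP libraries (log2FC 1.71 ± 0.26), with its highest value in GMP-MoP replicate 2 and a log2FC of 1.24 without that library. Tlr2 (0.79) and Tlr4 (0.68), the receptor for LPS, were not called, and neither was its co-factor gene Ly96 (-0.16). Cybb, the catalytic subunit of the phagocyte oxidase, was at 46.5, 52.3 and 60.5 FPKM in the GMP-MoP libraries, against 7.21, 13.3 and 12.5 FPKM in the GMP libraries (log2FC 2.20 ± 0.18, adjusted p = 1.35e-10) and was the only one of 6 oxidase genes called higher. The cytosolic subunits Ncf1 (0.98 ± 0.065) and Ncf4 (0.92 ± 0.086) were just under the threshold, and leaving out GMP replicate 2 brought the count to 3, while leaving out GMP replicate 3 or GMP-MoP replicate 2 brought it to 2.

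The other leading genes that were higher covered several functions. Siglece, an inhibitory sialic acid receptor, was at 13.5 ± 0.882 FPKM in GMP-MoP and 1.07 ± 0.381 FPKM in GMP (log2FC 2.82 ± 0.13). The lectin gene Mgl2 was at 34.8 ± 1.31 FPKM in GMP-MoP and 4.6 ± 1.79 FPKM in GMP (log2FC 2.73 ± 0.17). Tifab, a regulator of inflammatory signalling, was at 142 ± 30.1 FPKM in GMP-MoP and 20.6 ± 1.71 FPKM in GMP (log2FC 2.71 ± 0.11). Enzymes were among them too. The glutathione transferase gene Mgst2 was at 68.4 ± 9.43 FPKM in GMP-MoP and 10.5 ± 4.22 FPKM in GMP (log2FC 2.67 ± 0.22). Xdh, xanthine dehydrogenase, was at 17.1 ± 4.32 FPKM in GMP-MoP and 2.3 ± 0.927 FPKM in GMP (log2FC 2.47 ± 0.19). Apba1, an adaptor, was at 12.3 ± 1.45 FPKM in GMP-MoP and 1.13 ± 0.229 FPKM in GMP (log2FC 2.65 ± 0.10). Tmem119, best known as a microglial marker, was at 11.9 ± 1.26 FPKM in GMP-MoP and 1.06 ± 0.000428 FPKM in GMP (log2FC 2.65 ± 0.091). Nrg2, a neuregulin, was at 19.97 ± 2.36 FPKM in GMP-MoP and 2.39 ± 0.717 FPKM in GMP (log2FC 2.65 ± 0.11). Dmkn (2.56) and Cracr2b (2.72) completed the 20, and 46.1% of the 31-base words of Cracr2b lie in another gene.

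Eosinophil genes were lower throughout the list: 9 of 9 in the table were called lower, against 6.53% of all genes, with a list median of -7.41. Their share of the summed FPKM was 0.00728 ± 0.0037% in GMP-MoP and 3.31 ± 0.461% in GMP (SD, n = 3 each). Prg2, the eosinophil major basic protein, was the most abundant of them in GMP, at 13.7, 18.4 and 0.593 FPKM in the GMP-MoP libraries, against 8777, 10924 and 10737 FPKM in the GMP libraries (log2FC -10.36 ± 0.53, adjusted p = 2.38e-14). Prg2 was not even across the GMP-MoP libraries, since replicate 3 held 14 reads where replicates 1 and 2 held 316 and 385. Its log2FC was -9.22 without GMP-MoP replicate 3 and -11.03 without GMP-MoP replicate 2. Epx, eosinophil peroxidase, was at 1.69, 1.27 and 0.0264 FPKM in the GMP-MoP libraries, against 866, 1553 and 1017 FPKM in the GMP libraries (log2FC -9.24 ± 0.35, adjusted p = 5.23e-17). Among the eosinophil-associated ribonucleases Ear6 was at 1.65, 1.87 and 0 FPKM in the GMP-MoP libraries, against 453, 877 and 597 FPKM in the GMP libraries (log2FC -8.30 ± 0.33). Ear1 was at 2.33 ± 1.85 FPKM in GMP-MoP and 605 ± 172 FPKM in GMP (log2FC -7.69 ± 0.37, or -7.07 without GMP-MoP replicate 3), and Ear2 at 2.54 ± 1.34 FPKM in GMP-MoP and 520.4 ± 191 FPKM in GMP (log2FC -7.22 ± 0.32). Ear1 and Ear2 are near copies, with 73.7% and 60.5% of their 31-base words found in other genes and promoters 97.6% identical over 250 bases, so that reads may have been split between them. Prg3 (-7.41), Alox15 (-3.85), Il5ra (-3.42) and Siglecf, a receptor on mature eosinophils (9.82 ± 1.13 FPKM in GMP-MoP and 34.2 ± 0.635 FPKM in GMP, log2FC -1.71 ± 0.12), were the remaining genes.

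Basophil and mast cell genes followed. In this list 11 of 13 were called lower and none higher, with a median of -4.71, or -4.61 with the 3 genes at 0 reads in GMP-MoP set to 3 reads per library. Prss34, a basophil and mast cell serine protease, had the greatest difference of all named genes, at 1.07, 0.854 and 0.291 FPKM in the GMP-MoP libraries, against 3705, 1986 and 3349 FPKM in the GMP libraries (log2FC -10.74 ± 0.32, adjusted p = 8.21e-19), which came to 10 to 36 reads per GMP-MoP library. Mcpt8, a basophil protease, was at 13.4, 14.9 and 16.1 FPKM in the GMP-MoP libraries, against 2221, 1203 and 2035 FPKM in the GMP libraries (log2FC -6.80 ± 0.21, adjusted p = 1.73e-18). Cpa3, mast cell carboxypeptidase, was at 1.1, 0.249 and 0.686 FPKM in the GMP-MoP libraries, against 799.5, 543 and 706 FPKM in the GMP libraries (log2FC -8.68 ± 0.29, adjusted p = 6.35e-18). Of the subunits of the high-affinity IgE receptor, Fcer1a had 0 reads in the GMP-MoP libraries against 117, 74.2 and 147 FPKM in the GMP libraries, at least 1008-fold lower when 3 reads per GMP-MoP library are taken as the floor. Ms4a2, the β subunit, was at 1.55, 1.81 and 1.09 FPKM in the GMP-MoP libraries, against 309, 213 and 249.8 FPKM in the GMP libraries (log2FC -6.70 ± 0.18, adjusted p = 7.21e-20). Fcer1g, the γ chain shared by many myeloid Fc receptors, was not called (log2FC 0.0072 ± 0.14, adjusted p = 0.972), and neither was the granule proteoglycan Srgn (0.026 ± 0.10). Gzmb also had 0 reads in GMP-MoP (at least 326-fold lower than 25.4 ± 3.8 FPKM in GMP), and Cyp11a1 was at 0.0112 ± 0.0193 FPKM in GMP-MoP and 44.9 ± 8.67 FPKM in GMP. Hdc, which makes histamine, stood at 80.2 ± 6.77 FPKM in GMP-MoP and 177 ± 5.01 FPKM in GMP (log2FC -1.14 ± 0.13).

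Promoters of 4 basophil and mast cell genes are printed because all 4 held the letters AGATAA, the GATA factor motif searched on both strands, and because these genes had the largest differences of the list along with Mcpt8, whose window does not hold these letters. The sequences are the 250 bases before the start site from RefSeq, build GRCm38.p6, with the motif on either strand in capitals: Prss34 at chr17:25298144-25298393 on the plus strand, Cpa3 at chr3:20242182-20242431, Fcer1a at chr1:173227230-173227479 and Ms4a2 at chr19:11623720-11623969, the last 3 on the minus strand.
Prss34: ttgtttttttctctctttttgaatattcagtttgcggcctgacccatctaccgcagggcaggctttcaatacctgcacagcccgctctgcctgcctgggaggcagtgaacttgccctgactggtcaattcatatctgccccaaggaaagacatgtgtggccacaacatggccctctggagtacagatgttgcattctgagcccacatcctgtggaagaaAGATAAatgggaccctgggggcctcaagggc
Cpa3: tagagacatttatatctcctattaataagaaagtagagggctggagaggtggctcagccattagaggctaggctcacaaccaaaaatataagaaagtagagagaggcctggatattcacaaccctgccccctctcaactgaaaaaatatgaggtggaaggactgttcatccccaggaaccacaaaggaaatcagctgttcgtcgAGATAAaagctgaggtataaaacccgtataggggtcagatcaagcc
Fcer1a: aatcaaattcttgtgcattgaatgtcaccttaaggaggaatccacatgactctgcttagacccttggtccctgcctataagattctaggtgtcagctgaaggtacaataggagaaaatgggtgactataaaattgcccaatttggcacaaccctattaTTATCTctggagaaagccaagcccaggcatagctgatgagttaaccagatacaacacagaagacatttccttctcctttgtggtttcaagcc
Ms4a2: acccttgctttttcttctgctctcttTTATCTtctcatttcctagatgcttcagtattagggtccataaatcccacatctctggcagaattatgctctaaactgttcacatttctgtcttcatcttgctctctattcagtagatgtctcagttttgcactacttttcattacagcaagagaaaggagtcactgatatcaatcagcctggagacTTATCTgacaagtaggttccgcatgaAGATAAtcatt

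Ms4a2 held the motif 3 times, starting 224, 37 and 11 bases before the start site, and the other genes once each, 31 bases before it in Prss34, 46 in Cpa3 and 92 in Fcer1a. Of the 20 leading lower genes 18 had a promoter in the table, and 4 of these held the motif (22.2%, exact 95% binomial interval 6.41 to 47.6%). Of the 20 leading higher genes 14 had one, and 1 of these held it (7.14%). Over all genes it was present in 492 of 8472 promoters (5.81%), and over all genes called lower in 53 of 497 (10.7%). The C/EBP letters TTGCNNAA occurred in 2 of the 14 leading higher promoters (14.3%) and 5 of the 18 leading lower ones (27.8%), against 7.45% of all promoters. The PU.1 letters GAGGAA occurred in 5 of the 14 leading higher promoters (35.7%) and 5 of the 18 leading lower ones (27.8%), against 22.6% of all promoters. These matches describe the printed window and were not tested for binding.

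Enzymes of lipid mediators and histamine split within 1 list, with 1 of 8 called higher and 4 lower. Alox5, arachidonate 5-lipoxygenase, was at 0.835, 1.08 and 1.89 FPKM in the GMP-MoP libraries, against 93.2, 60.1 and 81.8 FPKM in the GMP libraries (log2FC -5.13 ± 0.19, adjusted p = 4.23e-17), and Tbxas1, thromboxane synthase, at 4.54 ± 0.519 FPKM in GMP-MoP and 22.2 ± 1.58 FPKM in GMP (log2FC -2.07 ± 0.087). Ptgs1, cyclooxygenase-1, was higher at 23.5 ± 1.47 FPKM in GMP-MoP and 10.2 ± 1.09 FPKM in GMP (log2FC 1.13 ± 0.066). The list as a whole held 0.161 ± 0.00586% of the summed FPKM in GMP-MoP and 0.162 ± 0.00744% in GMP.

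Of 16 regulators of the GATA axis and other factors, 9 were called lower and 1 higher, with a list median of -2.17. Gata2 was at 0.719, 0.968 and 1.71 FPKM in the GMP-MoP libraries, against 195, 138 and 174 FPKM in the GMP libraries (log2FC -6.33 ± 0.17, adjusted p = 1.12e-19). Gata1 was at 0.114, 0.0421 and 0.0373 FPKM in the GMP-MoP libraries, against 33.3, 32.2 and 34.2 FPKM in the GMP libraries (log2FC -5.01 ± 0.11, adjusted p = 1.24e-21). Related factors were called lower as well. Zfpm1, which encodes the GATA cofactor FOG-1, was at 1.02 ± 0.371 FPKM in GMP-MoP and 43.96 ± 1.7 FPKM in GMP (log2FC -4.49 ± 0.14). Gfi1b was at 0.0409 ± 0.00269 FPKM in GMP-MoP and 17.3 ± 2.28 FPKM in GMP (log2FC -4.13 ± 0.11), and Tal1 at 6.2 ± 1.26 FPKM in GMP-MoP and 30.01 ± 3.15 FPKM in GMP (log2FC -2.12 ± 0.11). Klf1, the erythroid Krüppel-like factor, was at 0.175 ± 0.0647 FPKM in GMP-MoP and 11.6 ± 3.09 FPKM in GMP (log2FC -3.39 ± 0.19). Ikzf2 (-3.49), Id2 (-2.98) and Lmo4 (-2.23) were also called lower. Lmo2 (-0.31), Ldb1 (-0.62), Fli1 (-0.46), Erg (-0.75) and Mitf (0.81) were not called. The single higher member was Cebpd, which is also on the list of neutrophil-lineage regulators. It was not called without GMP replicate 3. Outside the lists, the leading lower genes included Csrp3, a muscle LIM protein, with 0 reads in GMP-MoP and 54.9, 37.2 and 57.6 FPKM in GMP (at least 417-fold lower at the same floor). The organic cation transporter Slc22a3 was at 0.0824 ± 0.095 FPKM in GMP-MoP and 52.99 ± 7.54 FPKM in GMP (log2FC -5.63 ± 0.12). The ribonuclease Rnase12 was at 1.01 ± 0.264 FPKM in GMP-MoP and 96.7 ± 3.5 FPKM in GMP (log2FC -5.61 ± 0.24).

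Megakaryocyte and erythroid genes were called lower in 12 of 18 cases and higher in none, with a list median of -3.04. Among genes with a mean of at least 5 FPKM, 5 were called lower, since fewer were tested. Platelet factor 4, Pf4, was at 0.104, 0.573 and 0.203 FPKM in the GMP-MoP libraries, against 200.5, 199 and 219 FPKM in the GMP libraries (log2FC -7.34 ± 0.23, adjusted p = 1.67e-18). The integrin Itga2b, known as CD41, was at 0.696, 0.408 and 0.579 FPKM in the GMP-MoP libraries, against 186, 149 and 166 FPKM in the GMP libraries (log2FC -6.75 ± 0.13, adjusted p = 5.39e-22). Vwf, von Willebrand factor, was at 0.105 ± 0.00983 FPKM in GMP-MoP and 12.3 ± 1.41 FPKM in GMP (log2FC -3.59 ± 0.11). The carbonic anhydrase genes Car1 (-4.43 ± 0.22) and Car2 (-3.36 ± 0.12) also fell. The globin genes Hbb-bs (0.44), Hbb-bt (0.038), Hba-a1 (-0.11) and Hba-a2 (0.43) were not called, and neither were Tfrc (0.59) and Nfe2 (-0.82).

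Stem and early progenitor genes were called lower in 14 of 21 cases and higher in 1 (list median -1.07). Angpt1 was at 0.911, 0.828 and 1.33 FPKM in the GMP-MoP libraries, against 70.96, 54.95 and 58.95 FPKM in the GMP libraries (log2FC -4.95 ± 0.11, adjusted p = 1.83e-21). The adhesion receptor Adgrg1, also called GPR56, was at 20.5 ± 0.87 FPKM in GMP-MoP and 213 ± 15.7 FPKM in GMP (log2FC -3.31 ± 0.12). Mycn had 0 reads in GMP-MoP and 8.61 ± 1.54 FPKM in GMP, at least 216-fold lower at the same floor. Meis1 (-2.20), Hlf (-1.64), Hoxa9 (-1.26), Muc13 (-2.39), Cd27 (-1.07) and Ly6a, the Sca-1 antigen (-1.43), were among the other lower members. Cd34 stood at 91.7, 94.7 and 109 FPKM in the GMP-MoP libraries, against 139.9, 145 and 139 FPKM in the GMP libraries (log2FC -0.52 ± 0.098, adjusted p = 9.26e-05). Kit stood at 67.3, 65.5 and 69.2 FPKM in the GMP-MoP libraries, against 96.7, 91.2 and 91.9 FPKM in the GMP libraries (log2FC -0.46 ± 0.081). The groups did not overlap for either, but neither reached the threshold of fold, and likewise Myb (-0.36) and Myc (-0.35) did not. Bex6 was the member called higher, at 57.00 ± 8.65 FPKM in GMP-MoP and 25.2 ± 1.23 FPKM in GMP (log2FC 1.14 ± 0.12).

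Genes of antigen presentation, lymphoid cells and macrophages were lower in GMP-MoP where they were called. Among 15 genes of dendritic cells and antigen presentation through MHC class II, 8 were called lower and none higher. Cd74, the invariant chain, was at 0.819, 0.509 and 0.426 FPKM in the GMP-MoP libraries, against 428, 193 and 470.2 FPKM in the GMP libraries (log2FC -7.75 ± 0.36, adjusted p = 2.35e-15). The class II gene H2-Aa was at 0.193, 0.284 and 0.693 FPKM in the GMP-MoP libraries, against 274, 132 and 310.1 FPKM in the GMP libraries (log2FC -7.36 ± 0.32). H2-Eb1 was at 0.0718 ± 0.0662 FPKM in GMP-MoP and 98.9 ± 41.1 FPKM in GMP (log2FC -6.45 ± 0.29), and H2-Ab1 at 6.03 ± 1.7 FPKM in GMP-MoP and 262 ± 108 FPKM in GMP (log2FC -5.15 ± 0.31). In each of these genes GMP replicate 2 was the lowest GMP library. In the list of B-lymphoid genes 7 of 8 were called lower. Jchain, the joining chain of IgA and IgM, was at 0, 0.0575 and 0.204 FPKM in the GMP-MoP libraries, against 59.8, 66.2 and 106 FPKM in the GMP libraries (log2FC -6.13 ± 0.42). Dntt, an enzyme of receptor gene rearrangement, was at 0.191 ± 0.212 FPKM in GMP-MoP and 10.3 ± 3.5 FPKM in GMP (log2FC -3.21 ± 0.19). Cd79a was at 0.533 ± 0.136 FPKM in GMP-MoP and 8.37 ± 2.79 FPKM in GMP (log2FC -2.57 ± 0.24), and Vpreb1 at 0.557 ± 0.161 FPKM in GMP-MoP and 5.94 ± 2.61 FPKM in GMP (log2FC -2.08 ± 0.28). Macrophage and stromal genes were called lower in 11 of 13 cases. Among genes with a mean of at least 5 FPKM, 4 macrophage and stromal genes and 2 B-lymphoid genes were called lower, since fewer were tested. Apoe was at 8.88, 13.8 and 8.75 FPKM in the GMP-MoP libraries, against 322, 263 and 302 FPKM in the GMP libraries (log2FC -4.71 ± 0.18, adjusted p = 5.04e-17). C1qa was at 0.138 ± 0.12 FPKM in GMP-MoP and 9.76 ± 1.42 FPKM in GMP (log2FC -3.24 ± 0.22), and Hmox1 at 1.55 ± 0.438 FPKM in GMP-MoP and 22.1 ± 3.32 FPKM in GMP (log2FC -3.19 ± 0.17). Adgre1, the F4/80 antigen (0.09 ± 0.13), and Vcam1 (-0.85 ± 0.18) were not called. Of the 3 measured T and NK cell genes, 2 were called lower, Klrd1 (-1.73) and Ccl5 (-1.81).

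Among chemokine receptors, integrins and selectins 7 of 20 were called lower and none higher (list median -0.57). Ccr1 was at 1.72 ± 0.999 FPKM in GMP-MoP and 17.2 ± 5.22 FPKM in GMP (log2FC -2.77 ± 0.22). The neutrophil chemokine receptor Cxcr2 was at 2.84 ± 0.929 FPKM in GMP-MoP and 10.8 ± 1.49 FPKM in GMP (log2FC -1.64 ± 0.19), and the tetraspanin Cd9 at 11.8 ± 0.823 FPKM in GMP-MoP and 86.3 ± 8.24 FPKM in GMP (log2FC -2.77 ± 0.17). Cxcr4, the receptor that retains progenitors in marrow (-0.27), Itga4 (-0.71), Itgam (-0.10) and Selplg (0.22) were not called. Among 21 type I interferon-stimulated genes 6 were called lower and none higher (list median -0.79). Irf7 was at 0.692 ± 0.196 FPKM in GMP-MoP and 8.57 ± 2.88 FPKM in GMP (log2FC -2.46 ± 0.28). Ddx58, the RNA sensor RIG-I, was at 1.58 ± 0.0509 FPKM in GMP-MoP and 10.96 ± 0.741 FPKM in GMP (log2FC -2.21 ± 0.11), and Rtp4 at 0.202 ± 0.114 FPKM in GMP-MoP and 4.2 ± 1.37 FPKM in GMP (log2FC -2.09 ± 0.33). This count rested on the treatment of low values, with 12 lower at a pseudocount of 0.1 and 1 lower among genes with a mean of at least 5 FPKM. Ifih1 (-0.12) was not called.

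**Figure D3:**
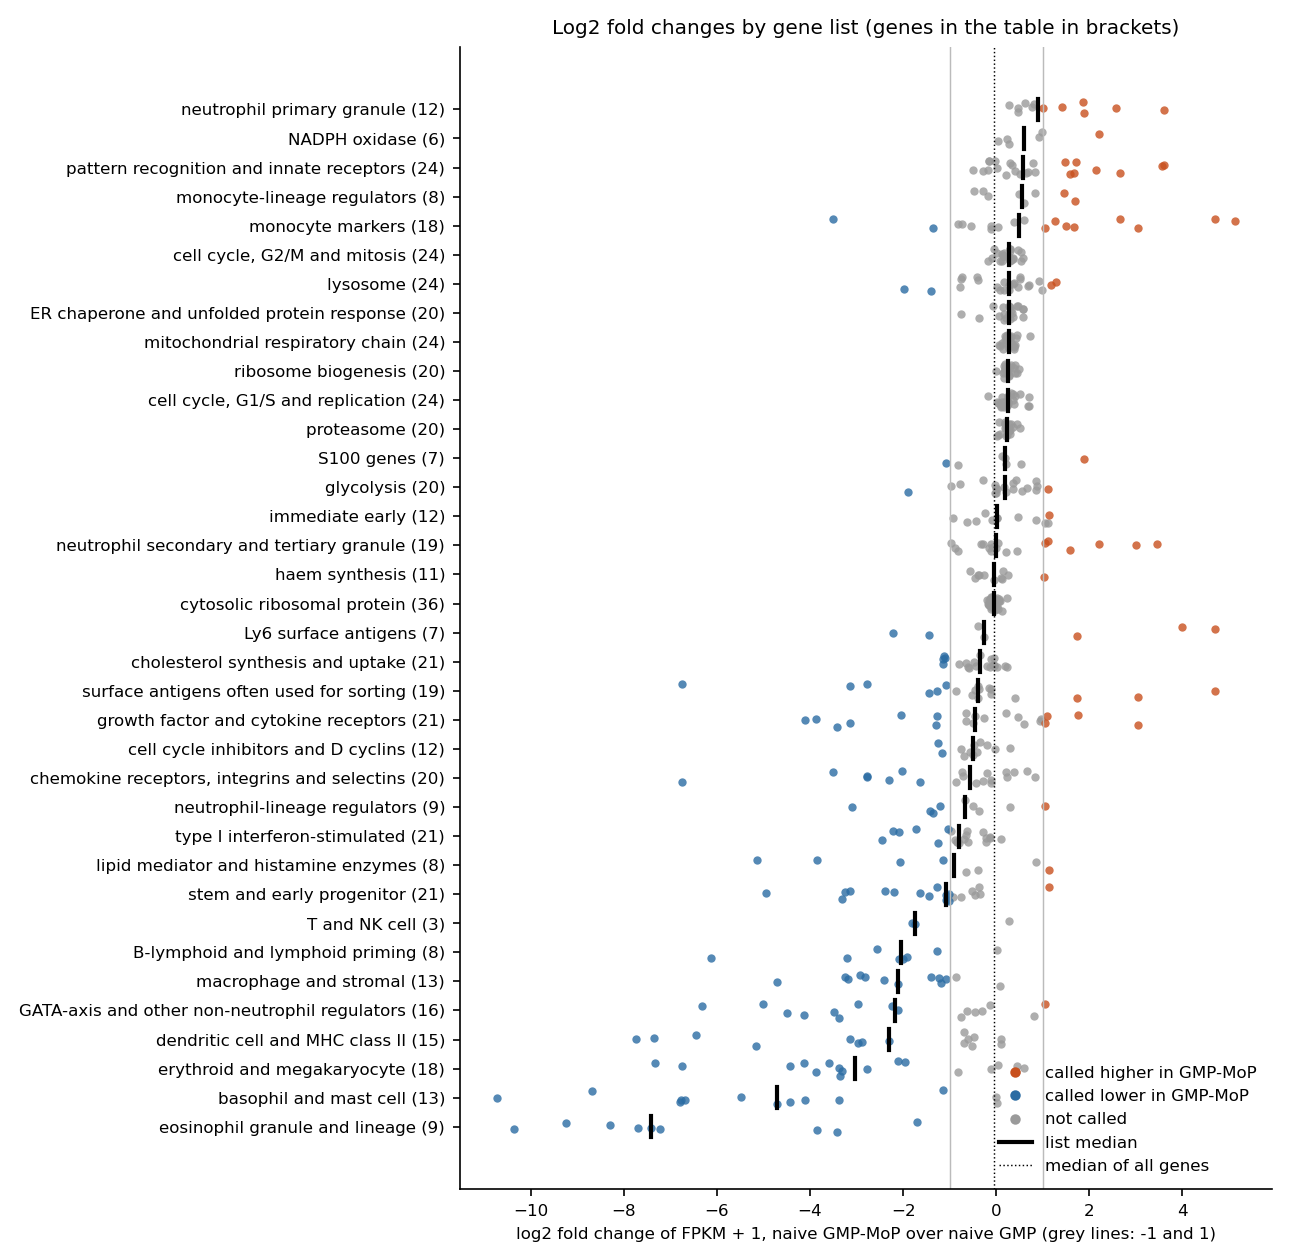
Log2FC of every gene of the 36 lists that is in the table, with lists ordered by their median (black bar) from neutrophil primary granule (0.91) at the top to eosinophil granule and lineage (-7.41) at the bottom. Points are genes, coloured by whether limma called them higher or lower in naive GMP-MoP than in naive GMP or not; the dotted line is the median of all genes (-0.044).

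In the housekeeping programs, at the centre of the plot of gene lists, differences were small. None of 24 G1/S and replication genes (list median 0.25) and none of 24 G2/M genes (0.28) was called, and the same held for 20 ribosome biogenesis genes (0.25), 36 ribosomal protein genes (-0.051), 24 respiratory chain genes (0.28), 20 proteasome genes (0.23) and 20 genes of ER chaperones and the unfolded protein response (0.28). These 7 lists hold 168 genes, of which limma gave 99 an unadjusted p under 0.05 with a positive log2FC and 4 with a negative one, and 86 and 4 an adjusted p under 0.05; voom called 0 either way. By adjusted p at any fold that was 51.2% of the 168 genes higher and 2.38% lower, against 21.4% and 29.1% of all 11383 genes. Small differences above 0 ran through whole lists, with 20 of 20 proteasome genes and 24 of 24 respiratory chain genes higher in mean log2 level in GMP-MoP. Ribosomal protein genes held 9.08 ± 0.255% of the summed FPKM in GMP-MoP and 9.33 ± 0.224% in GMP. The 20 glycolysis genes held 1.16 ± 0.0144% in GMP-MoP and 0.815 ± 0.0374% in GMP. Hk3, the hexokinase of myeloid cells, was called higher (202 ± 5.79 FPKM in GMP-MoP and 93.01 ± 11.5 FPKM in GMP, log2FC 1.12 ± 0.087). The glucose transporter Slc2a3 was called lower (3.65 ± 0.372 FPKM in GMP-MoP and 16.3 ± 1.48 FPKM in GMP, log2FC -1.89 ± 0.16). Among 21 cholesterol genes 4 were called lower, among them the regulator Srebf2 (19.7 ± 1.42 FPKM in GMP-MoP and 44.8 ± 2.92 FPKM in GMP, log2FC -1.14 ± 0.074) and the synthesis enzymes Lss (-1.12) and Cyp51 (-1.15). Of the inhibitors and D cyclins, Btg2 (-1.25 ± 0.11) and Ccnd1 (-1.17 ± 0.16) were called lower out of 12, and Ccnd1 was at -0.99 without GMP-MoP replicate 2. In the lysosome list Ctsc, which activates granule serine proteases (33.1 ± 4.61 FPKM in GMP-MoP and 12.8 ± 0.301 FPKM in GMP, log2FC 1.29 ± 0.11), and Ctsz (1.17 ± 0.081) were called higher. Of the 24 genes of that list, Cd63 (115 ± 10.6 FPKM in GMP-MoP and 454 ± 30.7 FPKM in GMP, log2FC -1.98 ± 0.15) was among those called lower. Alas1, which starts haem synthesis, was the only 1 of 11 haem genes called higher (1.04 ± 0.13), and it was at 0.83 without GMP replicate 1 and 0.97 without GMP-MoP replicate 1. Of 19 surface antigens often used for sorting 3 were called higher (Csf1r, Ly6c2 and Ly6c1) and 6 lower (Flt3, Ly6a, Il7r, Cd27, Itga2b and Cd9). The sort gate is not given, so whether the sort itself set differences in these antigens cannot be told. The Fc receptor genes Fcgr3 (0.41 ± 0.11) and Fcgr2b (-0.16 ± 0.068), part of the usual GMP definition, were not called.

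**Figure D4:**
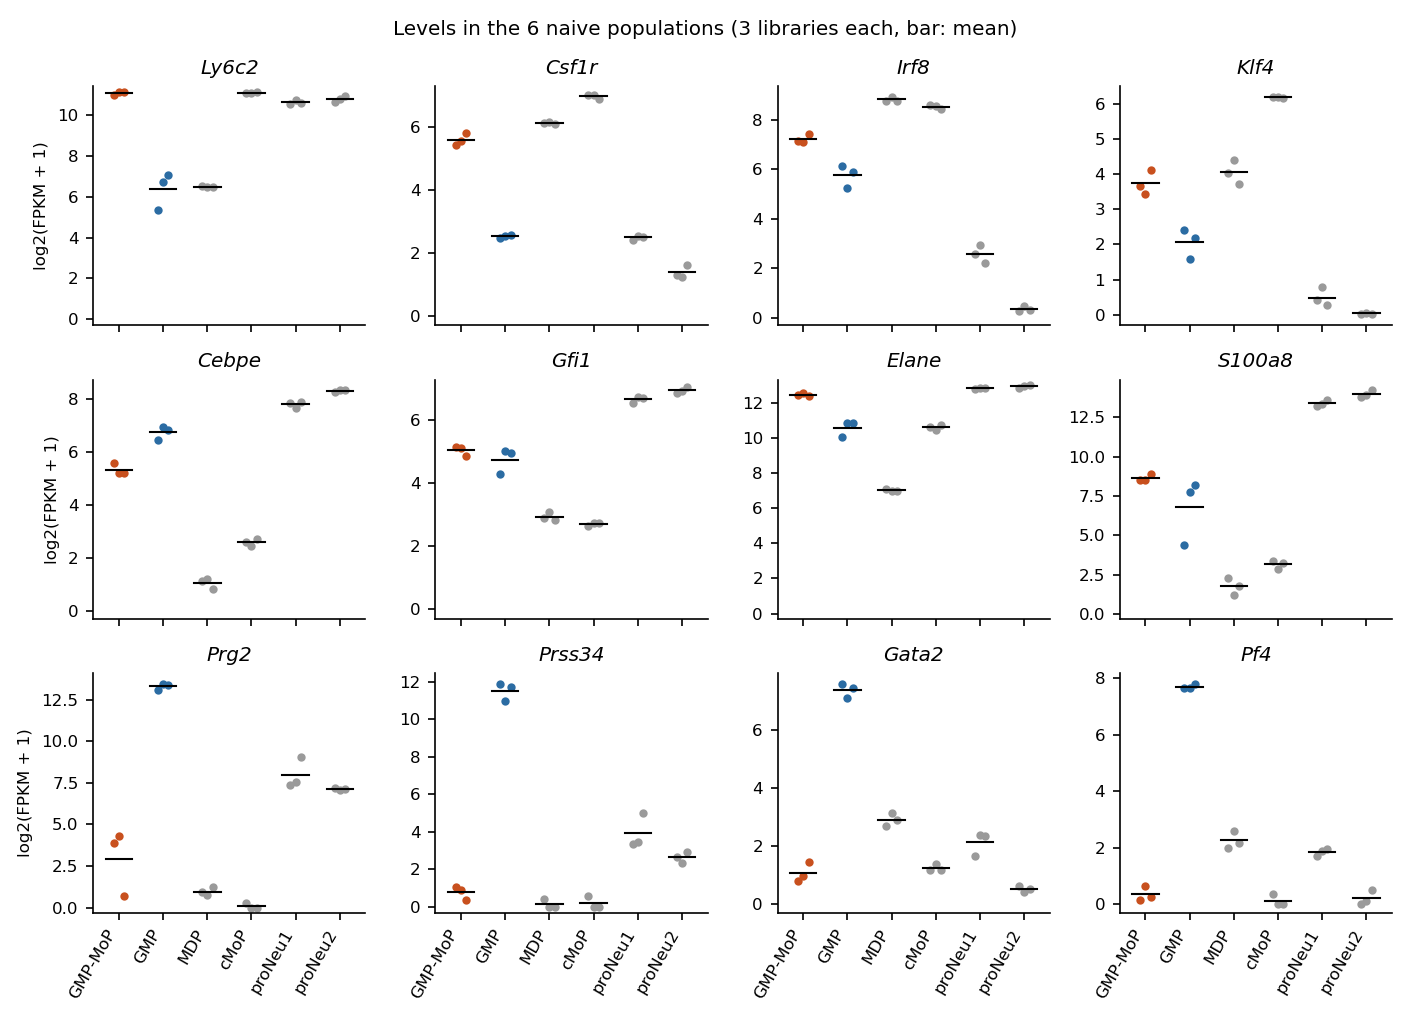
Levels of 12 named genes in the 6 naive populations on the log2(FPKM + 1) scale, 1 point per library (3 per population) with the mean as a bar, naive GMP-MoP at the left and naive GMP next to it. Prg2, Prss34, Gata2 and Pf4 stand highest in GMP, whereas Ly6c2 is near its cMoP level in GMP-MoP (2183 and 2228 FPKM).

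The levels in all naive populations, in the plot of 12 genes, show where GMP-MoP lay. Of the 20 leading higher genes, the highest mean of the 6 naive populations was in cMoP for 10 (among them F13a1, Ly6c2, Csf1r, Ly86 and Mefv), in proNeu2 for 9 (among them Chil3, Fcnb, Clec5a, Siglece and Hp), in MDP for Tmem119, and in GMP-MoP for none. F13a1 was at 256 ± 30.7 FPKM in GMP-MoP, 718 ± 6.61 in cMoP, 184 ± 7.8 in MDP, 49.7 ± 2.45 in proNeu1, 23.6 ± 1.8 in proNeu2 and 6.3 ± 0.953 in GMP. Fcnb was at 59.8 ± 7.54 FPKM in GMP-MoP, 16.4 ± 2.06 in cMoP, 0 in MDP, 614 ± 9.79 in proNeu1, 1634 ± 178 in proNeu2 and 5.9 ± 4.4 in GMP. Irf8 stood at 149 ± 20.9 FPKM in GMP-MoP, 454 ± 28.997 in MDP, 371 ± 18.8 in cMoP, 5.08 ± 1.55 in proNeu1, 0.285 ± 0.0956 in proNeu2 and 54.8 ± 16.2 in GMP (SD, n = 3 each). All 20 leading lower genes had their highest mean in GMP. The choice of these genes favoured this, since it asked for a large drop from GMP and a GMP mean of at least 10 FPKM. Prss34, for instance, was at 0.738 FPKM in GMP-MoP, 0.11 in MDP, 0.16 in cMoP, 16.9 in proNeu1, 5.35 in proNeu2 and 3013 in GMP. MHC class II genes were also present in MDP, with Cd74 at 77.6 FPKM there.

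The same contrast could be made in the libraries labelled LPS, which are separate from the naive ones. After LPS 221 genes were called higher in GMP-MoP than in GMP (1.94%) and 414 lower (3.64%), together 5.58%. Of these, 112 were also called higher in naive libraries (48.7% of the naive and 50.7% of the LPS genes), and 362 were also called lower (48.7% of the naive and 87.4% of the LPS genes). The difference of the 2 contrasts was tested as an interaction term, and it was called greater after LPS for 373 genes (3.28%) and smaller for 73 (0.641%), together 3.92%. Eosinophil genes remained lower, with 9 of 9 called, and the 7 eosinophil markers summed to 20.7 FPKM in LPS GMP-MoP and 5661 FPKM in LPS GMP. Pf4 had the greatest interaction among the 40 leading genes, at 0.905, 0.556 and 1.2 FPKM in LPS GMP-MoP and 11.1, 16.7 and 6.68 FPKM in LPS GMP (log2FC -2.66, interaction 4.68, adjusted p = 2.85e-10). Irf8 and Klf4 were further apart after LPS. Irf8 was at 174, 176 and 146 FPKM in LPS GMP-MoP and 15.5, 15.5 and 10.1 FPKM in LPS GMP (log2FC 3.52, interaction 2.05, adjusted p = 1.8e-06), and the interaction of Klf4 was 2.45 (adjusted p = 2.16e-07). Among primary granule genes 2 of 12 were called higher after LPS. Elane was at 4642, 4009 and 3851 FPKM in LPS GMP-MoP and 3175, 2769.8 and 2434 FPKM in LPS GMP (log2FC 0.58, interaction -1.31, adjusted p = 5.73e-05), and Mpo had a log2FC of 0.095 there. Nothing in the labels says whether naive and LPS libraries were made together, so treatment and preparation cannot be told apart in the interaction.

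**Figure D5:**
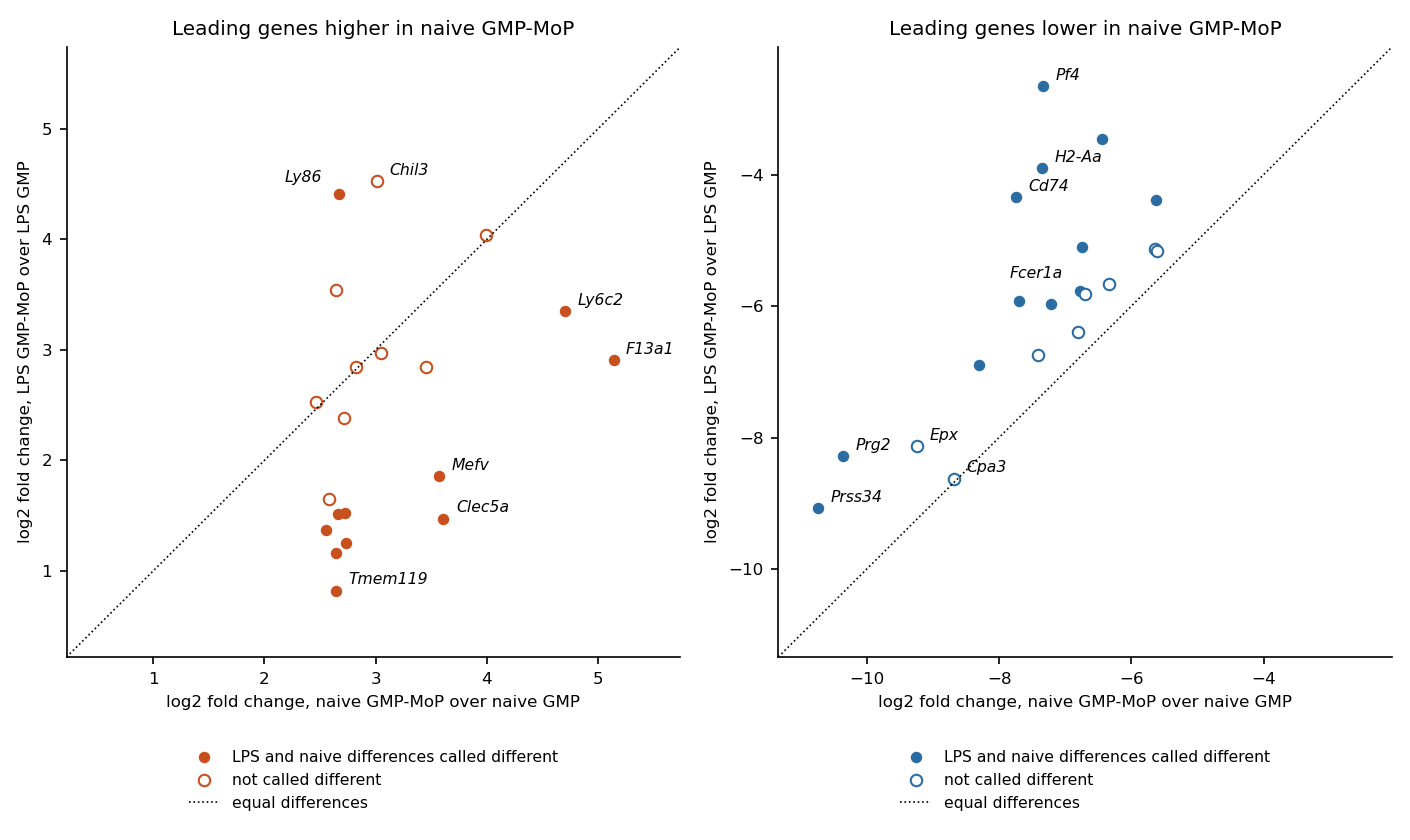
Log2FC of the 40 leading genes in LPS libraries (vertical, LPS GMP-MoP over LPS GMP) against naive libraries (horizontal, naive GMP-MoP over naive GMP), higher genes left and lower genes right. Filled points are genes whose 2 differences were called different by the interaction term (23 of 40) and the dotted line marks equal differences; naive values were used to choose the genes, so distance from that line is described and not read as a shift of the group.

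The plot of LPS against naive differences shows that every leading gene kept its sign. On the higher side F13a1 (LPS log2FC 2.90), Clec5a (1.47) and Tmem119 (0.82) were smaller after LPS and Ly86 (4.41) was greater. On the lower side Cpa3 (-8.62) stayed close to its naive value of -8.68.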

How the data were processed

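RNA of sorted mouse bone marrow progenitors was isolated with a column kit and sequenced from directional libraries, per the labels' protocols. Reads were trimmed with Trimmomatic 0.38.0, aligned with STAR 2.7.8 and counted with featureCounts 2.0.1, per the submitters' processing notes; the strand setting and annotation release are not given in the sources used here. The authors deposited FPKM values of 11383 genes in 30 libraries, and no other unit was used. The FPKM values came out as whole reads at the annotated exon length for 2506 genes. For the other 8877 they did so at the smallest length found by a search. The tolerance was the larger of 0.02 reads and 1e-07 of the count, at most 0.1. In the same search 0 of 100 shuffled genes gave whole reads, so depth could be recovered. Read counts given here rest on those lengths.

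Groups were taken from the sample labels. limma 3.58.1 in R 4.3.3 was fitted with a trended prior to log2(FPKM + 1) of all 30 libraries and 10 groups, with no filter, and p-values were adjusted over all genes by the Benjamini-Hochberg method. Called genes had an adjusted p under 0.05 and a log2 difference of at least 1. Exact permutation of 3 against 3 libraries cannot go below 0.1 and was not used. The fit was tested on simulated data.

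The result was recomputed with the replicate number as a block, with scaling by median-of-ratios factors, with 0.1 in place of 1 as pseudocount, on genes averaging 5 FPKM or more, on the 2 groups by themselves, without each library, and with limma voom on the recovered reads. After centring on group means, same-numbered libraries correlated at -0.00885 to 0.074 in naive groups and 0.241 to 0.295 in LPS groups. Different numbers gave -0.111 to 0.0608 in naive and -0.175 to -0.106 in LPS groups. The labels do not say whether numbers pair libraries, so pairing was not settled, and the main fit had no block.

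The genes named first are the 20 with the greatest difference each way, where 1 group averaged 10 FPKM or more and no library of 1 group lay within the range of the other, without predicted and immunoglobulin genes. Up to 5 called members of each of 36 gene lists, all regulators and cytokine receptors, a few panel genes and the 5 most variable genes per group were named as well. Other list members, mostly not called, were chosen after their values were seen, and the members and lists were chosen with earlier results of these data known. Promoters are the 250 bases upstream from RefSeq GRCm38.p6 and matched 8472 genes by symbol. Gene positions are from GRCm38. Intervals and floors cover counting error only, since PCR duplicates could not be told apart without molecular identifiers. Other protein and genome sequences were not used here. Some genes of the lists are counted but not reported here by name.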

Additional observations from a re-analysis of the deposited data

Results flagged for a closer look

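For 23 of the 40 leading genes the difference between GMP-MoP and GMP was not the same in LPS as in naive libraries, by limma's interaction term (adjusted p under 0.05 and a log2 change of at least 1, against 3.92% of all genes in either direction). The leading genes were chosen on the naive difference, so the naive part of each value was used to choose them. Values are LPS minus naive differences on the log2 scale.

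Among genes higher in naive GMP-MoP the LPS minus naive value was -2.23 for F13a1, -2.14 for Clec5a, -1.82 for Tmem119, -1.71 for Mefv, -1.49 for Nrg2, -1.48 for Mgl2, -1.35 for Ly6c2, -1.20 for Cracr2b, -1.19 for Dmkn and -1.15 for Mgst2. Ly86 went the other way, with 1.74.

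Among genes lower in naive GMP-MoP the difference was less negative after LPS for 12 genes. The values were 4.68 for Pf4, 3.45 for H2-Aa, 3.41 for Cd74, 3.00 for H2-Eb1, 2.07 for Prg2, 1.77 for Ear1, 1.66 for Prss34, 1.65 for Itga2b, 1.40 for Ear6, 1.26 for Ear2, 1.25 for Slc22a3 and 1.01 for Fcer1a. Of the 23 calls, 14 were lost under at least 1 of 18 alternatives and 0 changed sign. Prg2 and Fcer1a lost the call under 13 each, Ear2 under 9 and Ear6 under 8. The Prg2 value was the 1 call lost with the replicate number as a block, and it was 0.94 without naive GMP-MoP replicate 3. Voom ended the calls of Cd74, H2-Aa and H2-Eb1, among others.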

How the results depend on the processing

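The calls of all 40 leading genes held under all 18 settings tried, and of 123 named genes that were called, 94 were tested under every setting and 85 of these were called under each. The other 29 averaged under 5 FPKM and were not tested with that filter, and 28 of them were called under every other setting. Leaving out 1 library at a time gave 210 to 260 genes higher and 731 to 786 lower in naive GMP-MoP, 210 to 234 higher and 384 to 434 lower in LPS GMP-MoP, and 332 to 432 greater and 56 to 98 smaller interactions. The replicate block gave 230 higher and 746 lower in naive, and 222 and 418 in LPS, with 377 greater and 74 smaller interactions. Among genes with a mean of at least 5 FPKM, 294 were lower in naive and 185 lower in LPS, and 153 interactions were greater, since fewer genes were tested. With that filter the members called lower numbered 5 of the GATA axis (9 without it), 9 of stem and early progenitors (14), 3 of cytokine receptors (7), 0 of the Ly6 genes (2) and 0 of T and NK cells (2), and 5 innate receptors were called higher (8). A pseudocount of 0.1 gave 640 lower in LPS and 134 smaller interactions, and voom gave 347 higher and 643 lower in LPS and 137 smaller interactions; the cause was not tested. The share of promoters with the C/EBP letters was 27.8% in the leading lower genes and 8.45% in all genes called lower. Ccl3, at 0.24 with all libraries, ranged over -1.43 without naive GMP-MoP replicate 2 to 1.13 without naive GMP-MoP replicate 1. Median-of-ratios scaling moved the median of all genes to 0.0040.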

Other observations

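Immunoglobulin genes, 74 with the joining chain gene Jchain, were left out of the leading genes. Of these 64 were called lower in naive GMP-MoP and 0 higher, and their share of the summed FPKM was 0.0421 ± 0.0103% in GMP-MoP and 0.540 ± 0.170% in GMP (SD, n = 3 each). Single segments varied between the GMP libraries: Igkv5-39 was at 0, 0 and 0 FPKM in GMP-MoP and 71.7, 3.78 and 53.4 FPKM in GMP, and Ighv1-76 at 0, 0 and 0 FPKM in GMP-MoP and 36.3, 0.461 and 5.19 FPKM in GMP. After LPS 43 of the 74 were called lower.

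Genes called in opposite directions in naive and LPS libraries numbered 4 and were chosen for that. Lgals3 had a log2 difference of -1.35 in naive and 2.04 in LPS libraries, Ifi30, a lysosomal thiol reductase of antigen processing, -1.41 and 1.72, and Jaml, an adhesion molecule, -1.18 and 1.01. Gm22107, a predicted gene, was at 1.18 in naive and -1.25 in LPS libraries, from a mean of 2.04 FPKM in naive GMP-MoP and 0.339 FPKM in naive GMP.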
